A study of Mus musculus with 9 samples.

Results

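The 34 genes described here encode the stress sensors, transcription factors, chaperones, degradation factors and translocation channel of the endoplasmic reticulum (ER). They were chosen by symbol from a fixed list, and all 34 were found among the 28111 genes of the count table. RNA from induced regulatory T cells of C57BL/6J mice was sequenced in 9 libraries. Regulatory T cells (Treg) restrain immune responses and are marked by the transcription factor Foxp3, and induced Treg are made in culture from conventional T cells. The libraries were 4 from Glut1 transgenic (Glut1Tg) mice, which carry an added gene for the glucose transporter Glut1, and 5 from wild-type (WT) mice, with no other allele or agent named. The labels also put each library in mouse group 1 (Glut1Tg 2, 3 and 4 with WT 1 and 3) or mouse group 2 (Glut1Tg 1 with WT 2, 4 and 5), and do not say what distinguishes these groups. The labels do not name the promoter driving the transgene or the age of the mice, nor whether each library came from its own animal or culture. The p-values therefore measure the spread between these libraries, which may in part be technical.

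The unfolded protein response matches the folding capacity of the ER to the load of newly made secreted and membrane proteins, and it is known for its role in lymphocytes that enlarge and secrete. It has 3 sensors in the ER membrane. PERK (Eif2ak3) phosphorylates the initiation factor eIF2α, which slows translation and favours translation of Atf4, whose targets include Ddit3 (CHOP), Ppp1r15a (GADD34) and Trib3. IRE1 (Ern1) splices the mRNA of Xbp1, and the factor made from the spliced form induces degradation, translocation and co-chaperone genes. ATF6 (Atf6) is cut in the Golgi and its released part induces chaperones such as Hspa5 (BiP). The genes were placed in a PERK arm of 4, an IRE1 arm of 13 and an ATF6 arm of 17, although many targets of XBP1 and ATF6 are shared. Gene counts record mRNA amount and do not measure kinase activity, Xbp1 splicing or ATF6 cleavage.

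The ER stress response element (ERSE), which ATF6 binds together with NF-Y, was matched in more of these promoters than any other stress element searched. Promoter windows from RefSeq on GRCm38.p6, from 250 bases before to 50 after the transcription start, matched 29 of the 34 genes and gave 30 windows. The ERSE was searched as CCAAT, 9 bases of any kind and CCACG, on both strands. It was found in 9 of these 30 windows, against 39 of all 32851 windows (0.119%). The 9 genes were Hspa5, Hsp90b1, Calr, Canx, Pdia6, Creld2 and Syvn1 of the ATF6 arm and Dnajc3 and Derl3 of the IRE1 arm, and the Hsp90b1 window held 2 copies. The elements of genes that the results below turn on are printed on the strand where they read CCAAT first, 5′ to 3′, with the CCAAT and CCACG parts in capitals and 12 flanking bases on each side.
Hspa5, chr2:34772013-34772055, plus strand: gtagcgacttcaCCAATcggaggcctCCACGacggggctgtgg
Hsp90b1, distal copy, chr10:86705626-86705668, minus strand: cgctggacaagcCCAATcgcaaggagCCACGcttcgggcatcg
Hsp90b1, proximal copy, chr10:86705521-86705563, plus strand: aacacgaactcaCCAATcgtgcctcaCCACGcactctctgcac
Calr, chr8:84847063-84847105, plus strand: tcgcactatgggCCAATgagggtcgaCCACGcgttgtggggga
Canx, chr11:50325788-50325830, minus strand: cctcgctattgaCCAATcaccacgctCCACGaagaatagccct
Pdia6, chr12:17266479-17266521, plus strand: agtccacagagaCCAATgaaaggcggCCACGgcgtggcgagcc
Creld2, chr15:88819508-88819550, minus strand: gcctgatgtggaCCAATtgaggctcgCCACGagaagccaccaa
Syvn1, chr19:6046520-6046562, plus strand: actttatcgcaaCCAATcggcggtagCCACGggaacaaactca
Derl3, chr10:75893230-75893272, minus strand: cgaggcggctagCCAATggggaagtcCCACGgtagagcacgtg
No spacer of 9 bases was the same in any pair of these elements. With the transcription start counted as 0, the Hspa5 element lay from −65 to −47, the Syvn1 element from −44 to −26 and the Calr element from −162 to −144.

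Other stress elements were rarer in the set. The ERSE-II, searched as ATTGG, 1 base and CCACG, was in 12 of all windows (0.0365%) and in those of Herpud1 and Dnajb11, and the Herpud1 element is shown in the same way because its gene moved against most of the ATF6 arm.
Herpud1, chr8:94386365-94386399, plus strand: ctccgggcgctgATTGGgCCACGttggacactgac
The CARE, TGATGNAA, a site for ATF4 and CHOP dimers, was in 3.97% of all windows and in those of Trib3 and Herpud1. The UPRE core, TGACGTGG, was in 0.676% of all windows and in 0 of the 30. These are letter matches and not measured binding.

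The total count in genes ran from 20881035 (Glut1Tg 2) to 31196428 (Glut1Tg 4) per library. Slc2a1, which encodes Glut1, had 260.2, 496, 279 and 457 CPM (counts scaled to a common library total) in Glut1Tg 1 to 4 and 29.7 to 58.7 CPM in WT. Foxp3 was present in all 9 libraries, at 621 to 1164 CPM. The 8 T cell markers summed to 4019 to 4875 CPM and 3 CD8 T cell markers to 7.37 to 10.6 CPM. Glut1Tg 1 and WT 2, both of mouse group 2, stood apart from the other 7 libraries on the first principal component. Their Il2ra, the IL-2 receptor alpha chain, was at 2959 and 2386 CPM against 241 to 690.0 CPM, and 10 proliferation markers summed to 5720.5 and 5501 CPM against 1032 to 2361 CPM. Glut1Tg 3 differed in another way: 10 mast cell and basophil markers summed to 2539 CPM there against 93.2 to 853 CPM elsewhere, and 11 myeloid markers to 456 CPM against 6.81 to 43.7 CPM. Of the 11 B cell and plasma cell markers, which matter here because plasma cells have an abundant ER, 1 was at 0 in all libraries and 3 others in at least 1 library. The list summed to 158.6 to 446 CPM in Glut1Tg and 90.6 to 432 CPM in WT, most of it Irf4, a factor that T cells also express, at 77.3 to 435 CPM.

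Per length, a few chaperones and folding enzymes were the most abundant of the 34 mRNAs, and the sensors Atf6 and Ern1 were among the scarcest. Mean levels in RPKM, which is CPM divided by exon length in kilobases, were 213 for the disulfide isomerase Pdia3, 202 for the calcium-binding lectin Calr, 121 for the HSP70 chaperone Hspa5, 103 for the prolyl hydroxylase subunit and isomerase P4hb and 92.8 for the HSP90 of the ER, Hsp90b1. The sensor Eif2ak3 was mid-range at 15.2 RPKM, above other chaperones such as Hyou1 (12.5 RPKM) and Dnajb9 (14.2 RPKM). The other sensors were at 2.89 RPKM for Atf6 and 2.14 RPKM for Ern1, and Derl3 was lowest at 1.05 RPKM. The steadiest gene was Dnajc3, the co-chaperone p58IPK, whose highest library was 1.16 times its lowest. The most variable was Dnajb9, the BiP co-chaperone ERdj4, at 7.05 times.

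**Figure D1:**
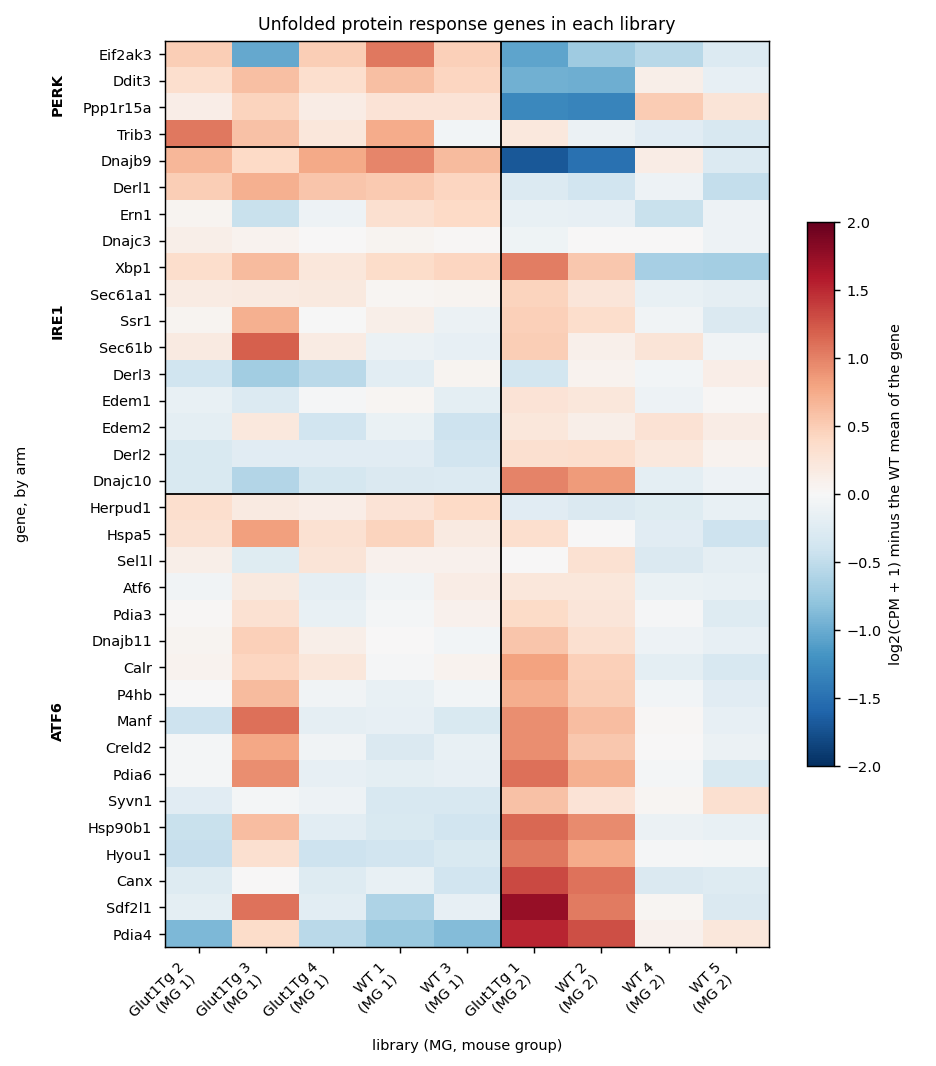
Level of each of the 34 genes in each library as log2(CPM + 1) minus the mean of the 5 WT libraries; rows are genes by arm, columns are libraries with mouse group 1 left and mouse group 2 right of the vertical line. Glut1Tg 1 and WT 2 are high in most ATF6-arm genes and low in Ddit3, Ppp1r15a and Dnajb9, and Glut1Tg 3 is the highest mouse group 1 library in 21 of the 34 genes.

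The 3 arms did not move as 1 block across libraries. As the mean over its genes of log2(CPM + 1) relative to the WT mean, the PERK arm was at −0.77 in Glut1Tg 1 and −0.78 in WT 2. In the other 7 libraries it ran from −0.13 (WT 5) to 0.67 (WT 1). The ATF6 arm was highest in that pair, with 0.77 in Glut1Tg 1 and 0.53 in WT 2, followed by 0.47 in Glut1Tg 3, whose PERK arm was at 0.15. The remaining 6 libraries lay between −0.15 and −0.09 in that arm. The IRE1 arm stayed between −0.15 (WT 5) and 0.14 (Glut1Tg 3), the narrowest range of the 3. On the same scale the proliferation markers were at 1.52 in Glut1Tg 1 and 1.36 in WT 2, against −0.95 to 0.08 elsewhere, and their part in the arm values was not tested. In bulk RNA, fewer cells of a kind and less mRNA per cell cannot be told apart. Gene by gene, Glut1Tg 1 and WT 2 both lay above all 7 other libraries in 10 of the 34 genes (29.4%, beside 22.6% of the 14817 genes tested), 6 of them in the ATF6 arm and 4 in the IRE1 arm. They lay below all others in 3 (8.82%, beside 19.7%): Ddit3, Ppp1r15a and Dnajb9. Glut1Tg 1 was the highest of all libraries in 17 genes (beside 22.6% of all genes), 13 of them in the ATF6 arm. Glut1Tg 3 was the highest of mouse group 1 in 21 (61.8%, beside 38.1%).

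**Figure D2:**
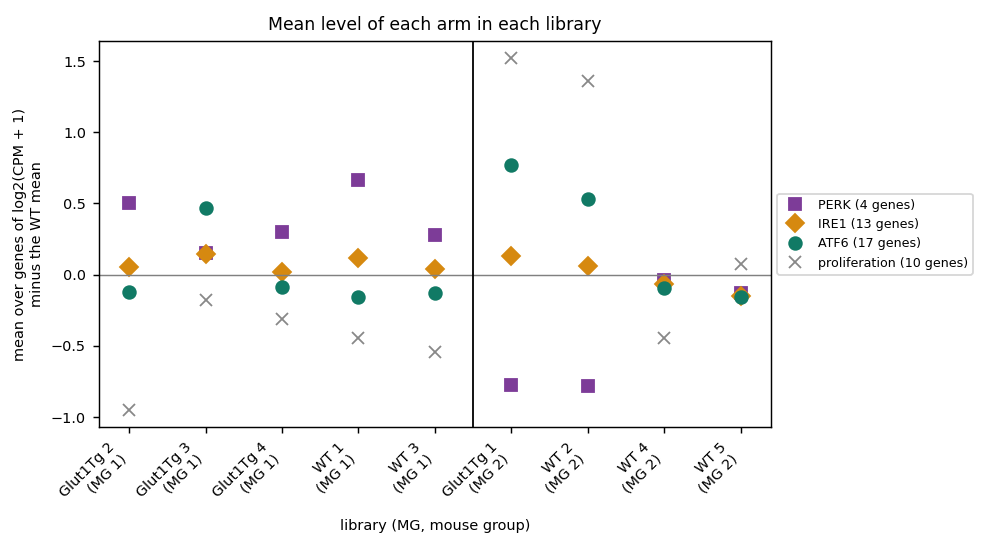
Mean over the genes of each arm, and over 10 proliferation markers, of log2(CPM + 1) minus the WT mean (vertical axis) in each library (horizontal axis, mouse group 1 left of the line). In Glut1Tg 1 and WT 2 the ATF6 arm is at 0.77 and 0.53 and the PERK arm at −0.77 and −0.78; the IRE1 arm stays near 0 in all libraries.

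The labels' mouse groups separated several of these genes, in both directions. With genotype in the model, 10 of the 34 genes (29.4%) differed between mouse groups at an adjusted p under 0.05, beside 24.1% of the 14817 genes tested. The 5 that were higher in mouse group 2 (14.7%, beside 13.1% of all genes) were Pdia4, Hyou1, Syvn1, Derl2 and Dnajc10, and the 5 that were lower (14.7%, beside 11.0%) were Eif2ak3, Ddit3, Dnajb9, Derl1 and Herpud1. Both shares are near those of all genes. In 7 of the 34 (20.6%) the 4 libraries of mouse group 2 did not overlap the 5 of mouse group 1, beside 21.8% of all genes. By arm, the median log2 fold change (mouse group 2 over mouse group 1) was −0.89 for the PERK arm, with 0 of 4 genes positive. It was 0.09 for the IRE1 arm and 0.50 for the ATF6 arm with 14 of 17 positive, beside −0.01 over all genes. Without Glut1Tg 1 and WT 2 the medians were −0.62 (PERK), −0.08 (IRE1) and 0.007 (ATF6), beside 0.012 over all genes. The ATF6-arm value therefore rested on those 2 libraries.

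The mRNA of PERK, Eif2ak3, was lower in mouse group 2 in the fit of all 9 libraries. Eif2ak3 had 123, 42.5 and 124 CPM in Glut1Tg 2, 3 and 4 and 184 and 122 CPM in WT 1 and 3 of mouse group 1. In mouse group 2 it had 41.7 CPM in Glut1Tg 1 and 53.2, 59.7 and 72.3 CPM in WT 2, 4 and 5. The groups overlapped only through Glut1Tg 3, the library with the mast cell and myeloid transcripts. The log2 fold change of Eif2ak3 was −1.27 ± 0.32 (SE; adjusted p = 0.022), and −1.20 (adjusted p = 0.22) without Glut1Tg 1 and WT 2. Its exons share 485 bases with a gene on the opposite strand, Gm43292, and the labels do not say whether the authors' counting used strand, so the count is uncertain to that extent.

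The PERK-arm factor Ddit3, a transcription factor that promotes cell death under lasting stress, was 43.4 ± 4.14 CPM in mouse group 1 (SD, n = 5) and 23.1 ± 9.20 CPM in mouse group 2 (SD, n = 4). The groups did not overlap, and the lowest values were 15.6 CPM in Glut1Tg 1 and 15.3 CPM in WT 2, against 33.9 CPM in WT 4 and 27.6 CPM in WT 5. The log2 fold change was −1.05 ± 0.26 (SE; adjusted p = 0.0201). Ppp1r15a, a phosphatase subunit that reverses eIF2α phosphorylation, was split by library and not by mouse group. It had 36.5 CPM in Glut1Tg 1 and 35.6 CPM in WT 2, and 99.5 to 129.6 CPM in the other 7 libraries, among them 129.6 CPM in WT 4 and 109 CPM in WT 5 of mouse group 2. Trib3, a pseudokinase induced by ATF4 and CHOP, had 14.5 to 32.6 CPM in mouse group 1 and 11.9 to 17.7 CPM in mouse group 2, which overlap, with a log2 fold change of −0.58 ± 0.24 (SE; adjusted p = 0.101).

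In the IRE1 arm, neither the sensor nor its factor passed the test, and the genes that did went both ways. Ern1 had 13.0 to 24.1 CPM in mouse group 1 and 12.9 to 16.7 CPM in mouse group 2 (log2 fold change −0.38 ± 0.19 SE, adjusted p = 0.162). Xbp1 was split within mouse group 2, with 259 CPM in Glut1Tg 1 and 184 CPM in WT 2 but 79.5 and 78.8 CPM in WT 4 and WT 5. In mouse group 1 it had 148 to 197 CPM. Glut1Tg 1 was above that range, WT 2 inside it and the other 2 below it, with a log2 fold change of −0.08 ± 0.31 (SE; adjusted p = 0.865). Without Glut1Tg 1 and WT 2 the Xbp1 log2 fold change was −1.07 (adjusted p = 0.0285), the only call among the 34 genes in that fit.

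Dnajb9, which helps BiP bind IRE1 and assists degradation, had the largest fitted fall of the 34. It had 48.6, 40.2 and 51.4 CPM in Glut1Tg 2, 3 and 4 and 60.5 and 47.4 CPM in WT 1 and 3. In mouse group 2 it had 8.59 CPM in Glut1Tg 1 and 10.1, 33.6 and 24.7 CPM in WT 2, 4 and 5. All 4 values of mouse group 2 lay below all 5 of mouse group 1, and the same pair of libraries was lowest. The log2 fold change was −1.67 ± 0.40 (SE; adjusted p = 0.0179), and −0.87 (adjusted p = 0.0819) without that pair.

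The Derlins, channel proteins of ER-associated degradation, went in different directions. Derl1 had 171 ± 12.6 CPM in mouse group 1 (SD, n = 5) and 94.4 ± 10.7 CPM in mouse group 2 (SD, n = 4). Its 4 values in mouse group 2 ran from 84.0 to 109 CPM, with Glut1Tg 1 (95.9 CPM) and WT 2 (89.0 CPM) inside that range. Its log2 fold change of −0.83 ± 0.12 (SE) had the smallest adjusted p of the 34, 0.00363. Derl2 had 33.5 ± 1.74 CPM in mouse group 1 (SD, n = 5) and 48.1 ± 4.05 CPM in mouse group 2 (SD, n = 4), again without overlap, with a log2 fold change of 0.55 ± 0.12 (SE; adjusted p = 0.0113). Derl2 shares 231 exonic bases with Mis12 on the opposite strand. Derl3 was the scarcest of the 34, at 1.2 to 2.89 CPM over all libraries.

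Dnajc10 (ERdj5), a disulfide reductase that prepares proteins for degradation, was nearly all a matter of the same pair of libraries. It had 192 CPM in Glut1Tg 1 and 173 CPM in WT 2, against 83.7 and 89.2 CPM in WT 4 and WT 5 and 63.1 to 79.4 CPM in mouse group 1. The groups did not overlap and the log2 fold change was 0.90 ± 0.26 (SE; adjusted p = 0.0334), but 0.15 (adjusted p = 0.653) without the pair. The mannosidase-like factors Edem1 and Edem2 and the translocon genes Sec61a1, Sec61b and Ssr1 did not pass. Edem2 came closest, at 61.6 to 95.7 CPM in mouse group 1 and 89.4 to 102 CPM in mouse group 2 (log2 fold change 0.41 ± 0.16 SE, adjusted p = 0.0808).

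**Figure D3:**
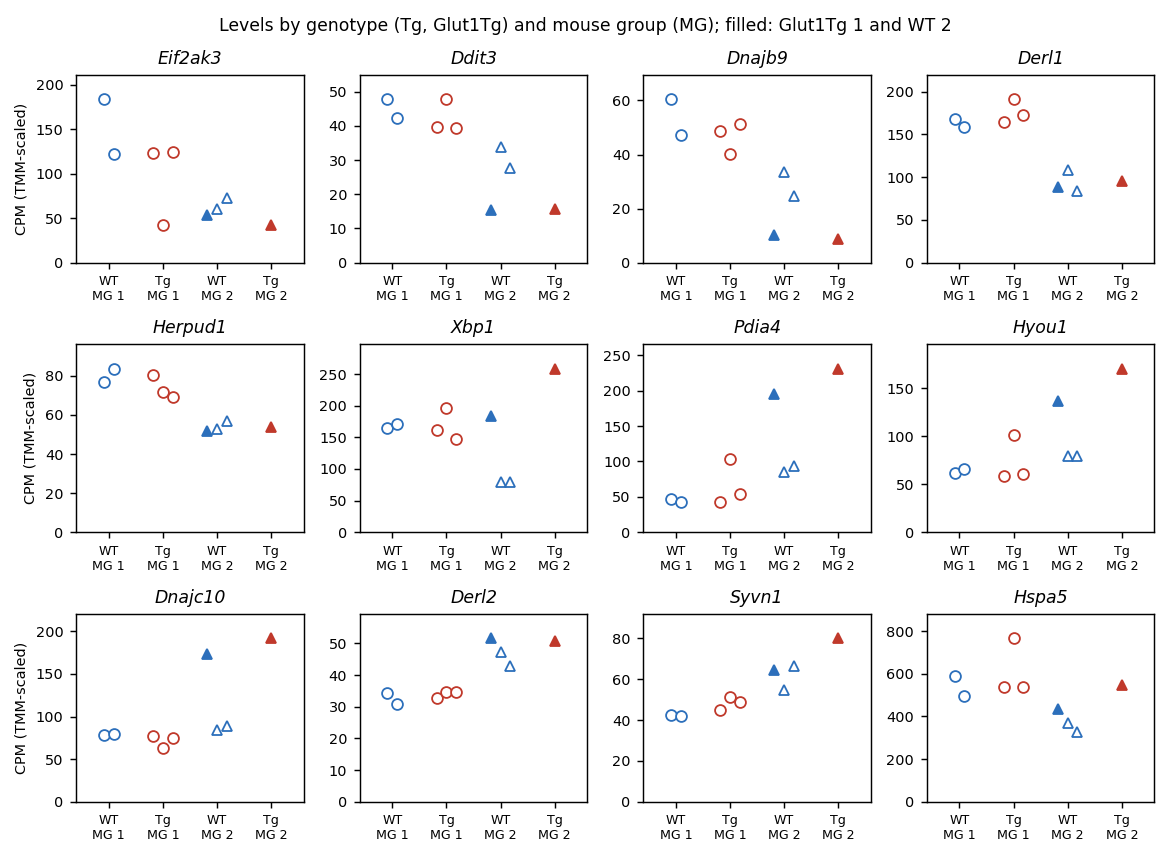
CPM of 12 of the genes by genotype and mouse group, 1 point per library; circles are mouse group 1, triangles mouse group 2, and filled triangles Glut1Tg 1 and WT 2. Derl1, Derl2, Herpud1, Ddit3, Dnajb9, Dnajc10 and Syvn1 separate by mouse group. The filled points lie among the other mouse group 2 points in Derl1 and above both of them in Derl2, Xbp1, Pdia4, Hyou1 and Dnajc10.

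In the ATF6 arm neither the sensor nor its best known target, Hspa5, passed the test, whereas several other genes did. Atf6 had 23.0 to 29.9 CPM in mouse group 1 and 23.3 to 30.7 CPM in mouse group 2 (log2 fold change 0.06 ± 0.16 SE, adjusted p = 0.79). Hspa5 had 537, 767, 539, 589 and 494 CPM in Glut1Tg 2, 3, 4, WT 1 and WT 3 of mouse group 1. In mouse group 2 it had 549.7 CPM in Glut1Tg 1 and 436, 371 and 327 CPM in WT 2, 4 and 5. The WT libraries of mouse group 2 were all below mouse group 1 and Glut1Tg 1 was within it, with a log2 fold change of −0.38 ± 0.17 (SE; adjusted p = 0.135).

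Pdia4 (ERp72), a disulfide isomerase, had the largest fitted rise. It had 42.5, 103 and 54.6 CPM in Glut1Tg 2, 3 and 4 and 47.4 and 43.3 CPM in WT 1 and 3, and 231 CPM in Glut1Tg 1 and 196, 84.7 and 93.8 CPM in WT 2, 4 and 5. Glut1Tg 3 was the single library of mouse group 1 that reached into mouse group 2. The log2 fold change was 1.59 ± 0.33 (SE; adjusted p = 0.0111), and 0.99 (adjusted p = 0.174) without Glut1Tg 1 and WT 2. Hyou1 (GRP170), a large chaperone and exchange factor for BiP, had 58.9 to 102 CPM in mouse group 1, where Glut1Tg 3 was highest. It had 171 CPM in Glut1Tg 1 and 136, 79.6 and 79.3 CPM in WT 2, 4 and 5, with a log2 fold change of 0.86 ± 0.25 (SE; adjusted p = 0.0347) that was 0.33 (adjusted p = 0.509) without the pair. Hsp90b1, Canx (the membrane lectin calnexin) and Sdf2l1 (a partner of BiP and ERdj proteins) did not pass. Hsp90b1 had the same layout as Hyou1. In Sdf2l1, Glut1Tg 3 (29.7 CPM) lay above WT 2 (28.8 CPM). Canx had 568.4 and 481 CPM in Glut1Tg 1 and WT 2 and 173 to 226 CPM in the other 7 libraries. Its WT 4 and WT 5 (185 and 189 CPM) lay within mouse group 1, and its log2 fold change was 0.96 ± 0.31 (SE; adjusted p = 0.0535).

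The other abundant folding enzymes of the ATF6 arm had no mouse group call, and their high libraries were the same. Calr had 874 CPM in Glut1Tg 1 and 698 CPM in WT 2, then 674 CPM in Glut1Tg 3, and its lowest values were 437 and 403 CPM in WT 4 and WT 5. P4hb had 429, 363 and 402 CPM in those first 3 libraries and 219 to 261 CPM in the other 6. Pdia3, the isomerase that works with calnexin and calreticulin, varied less, from 529 CPM in WT 5 to 828 CPM in Glut1Tg 1. Manf, a secreted survival factor that binds BiP, had 118 CPM in Glut1Tg 1, 95.5 CPM in WT 2 and 133 CPM in Glut1Tg 3, against 46.4 to 62.9 CPM elsewhere. Creld2 and Dnajb11 had the same 3 libraries on top, at 32.5 to 43.0 CPM against 18 to 22.2 CPM and at 133 to 156 CPM against 93.8 to 114 CPM. In each of P4hb, Manf, Creld2 and Dnajb11, mouse group 1 and mouse group 2 therefore overlapped. The translocon genes also had Glut1Tg 1 or Glut1Tg 3 highest: Sec61a1, the channel, ranged from 164 CPM in WT 5 to 254 CPM in Glut1Tg 1, and Ssr1, a subunit of the translocon-associated complex, from 110.3 CPM in WT 5 to 221 CPM in Glut1Tg 3. Edem1 ranged from 148 CPM in Glut1Tg 3 to 216 CPM in Glut1Tg 1, and Dnajc3 from 97.2 CPM in WT 5 to 113 CPM in Glut1Tg 2.

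The degradation factors of the ATF6 arm split. Syvn1 (HRD1), the central ubiquitin ligase of ER-associated degradation, had 46.0 ± 4.18 CPM in mouse group 1 (SD, n = 5) and 66.4 ± 10.5 CPM in mouse group 2 (SD, n = 4), without overlap. Its log2 fold change was 0.62 ± 0.12 (SE; adjusted p = 0.00784). Herpud1 (HERP), which recruits the ligase complex, had 76.3 ± 5.94 CPM against 53.8 ± 2.26 CPM, also without overlap, and a log2 fold change of −0.53 ± 0.11 (SE; adjusted p = 0.0116). Sel1l, the partner that stabilises HRD1, had 71.3 to 101 CPM in mouse group 1 and 69.2 to 104 CPM in mouse group 2. The 9 genes with an ERSE, 7 of them of the ATF6 arm, had a median log2 fold change of 0.51 and 1 call. The 20 matched genes without one, also 7 of them of the ATF6 arm, had 0.10 and 7 calls, beside 24.1% called over all genes, and the difference was not tested.

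These mouse group calls depended on which libraries entered the fit. Without Glut1Tg 1 only Derl1 passed of the 34 genes (651 of all genes, 4.30%), and without Glut1Tg 1 and WT 2 only Xbp1 (561 of all genes, 3.74%). Without WT 1, 5 of the 34 passed, beside 13.0% of all genes, and without Glut1Tg 3, 15, beside 30.5%. For Derl1, Derl2, Herpud1, Syvn1 and Eif2ak3 the size of the difference hardly moved without Glut1Tg 1 and WT 2, at −0.75, 0.48, −0.53, 0.54 and −1.20 on the log2 scale. For Ddit3 it went to −0.54 (adjusted p = 0.13). With Glut1Tg 3 left out as well, 12 of the 34 passed, beside 21.8% of all genes: all of the 10 above except Hyou1 and Dnajc10, together with Ern1, Xbp1, Edem2 and Hspa5. In both of the fits without the pair, mouse group 2 held only WT 4 and WT 5, so the fold changes rest on those 2 libraries.

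**Figure D4:**
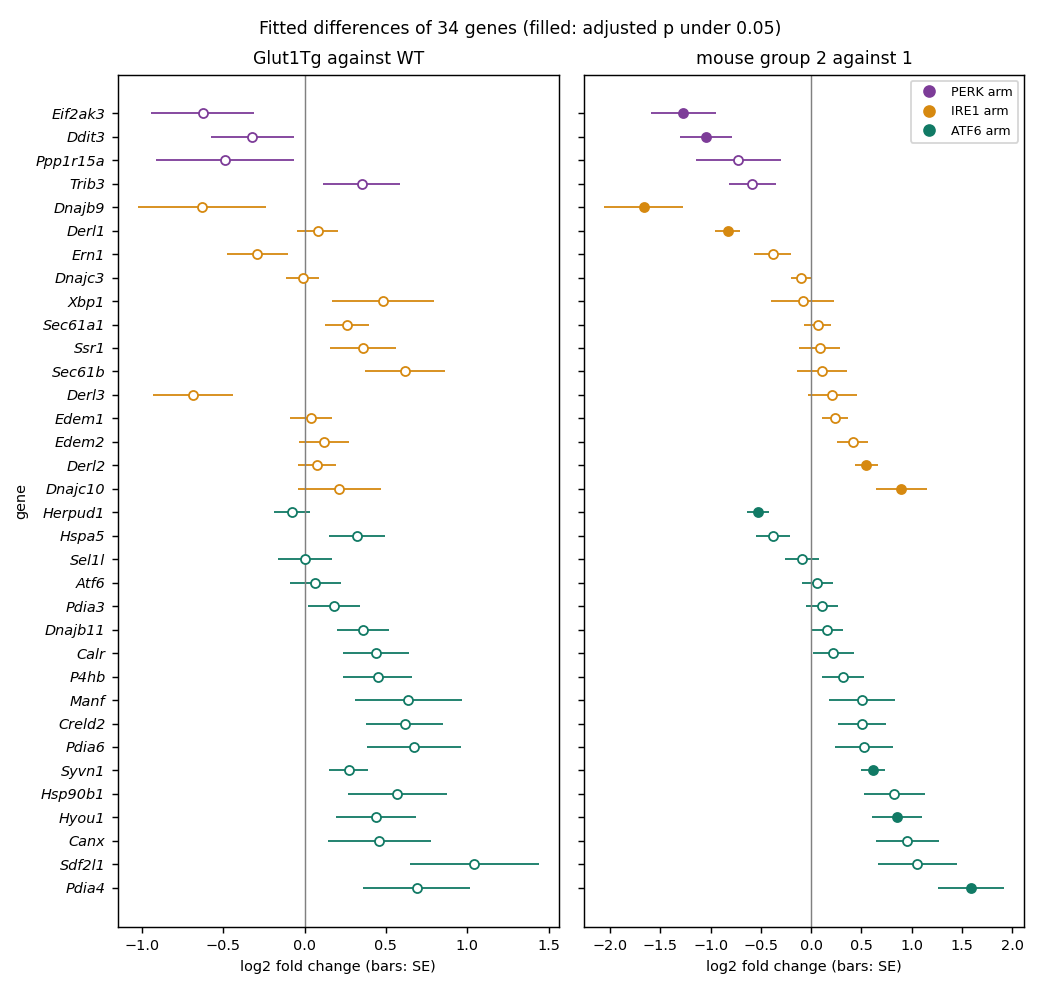
Fitted log2 fold change of each gene with its standard error, Glut1Tg over WT (left) and mouse group 2 over mouse group 1 (right), coloured by arm; filled points have an adjusted p under 0.05 from edgeR's quasi-likelihood test. No gene is filled on the left and 10 are on the right, while 16 of 17 ATF6-arm points lie above 0 on the left.

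For genotype, no gene of the set passed the test. Over all 14817 genes 1 was called (0.00675%), Slc2a1 itself, and the adjusted p of all 34 genes was 0.681 or higher. In simulated counts with this design the genotype fit recovered 0 of 200 genes changed 1.5-fold and 24 of 200 changed 2-fold. Differences of that size could therefore be missed. At an unadjusted p under 0.05, edgeR's quasi-likelihood test put 6 of the 34 (17.6%) higher in Glut1Tg, beside 4.50% of all genes, and 1 (2.94%) lower, beside 1.50%. DESeq2 also called none of the 34, with 5 higher and 1 lower at that unadjusted p. Most other settings gave fewer higher genes, as listed below. The 6 were the chaperone partners Sdf2l1 and Creld2, the isomerase Pdia6, the BiP co-chaperone Dnajb11, the ligase Syvn1 and the translocon subunit Sec61b. The median log2 fold change (Glut1Tg over WT) was 0.27 over the 34 genes with 26 positive, and 0.44 in the ATF6 arm with 16 of 17 positive. It was 0.08 in the IRE1 arm, −0.40 in the PERK arm with 1 of 4 positive, and 0.02 over all genes.

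In all 6 genes Glut1Tg 1 and Glut1Tg 3 were the highest transgenic libraries, although in Syvn1 Glut1Tg 3 (51.5 CPM) was below WT 2, 4 and 5. Sdf2l1, with the largest difference, had 47.0, 11.6, 29.7 and 11.5 CPM in Glut1Tg 1 to 4 and 8.36, 28.8, 11.8, 13.9 and 10.8 CPM in WT 1 to 5. Glut1Tg 2 and 4 lay among the WT libraries. The log2 fold change was 1.04 ± 0.39 (SE; adjusted p = 0.681), and 0.19 without Glut1Tg 1, Glut1Tg 3 and WT 2. Pdia6 had 209.9, 95.2, 187 and 87.2 CPM in Glut1Tg 1 to 4 and 85.4, 160.2, 87.1, 94.8 and 78.9 CPM in WT 1 to 5, the same layout. Its log2 fold change of 0.67 ± 0.29 (SE; adjusted p = 0.681) was 0.07 without those 3 libraries. Creld2 (log2 fold change 0.62 ± 0.24 SE), Dnajb11 (0.36 ± 0.16 SE) and Syvn1 (0.27 ± 0.12 SE) went to 0.15, 0.10 and 0.15. Sec61b had 72.9, 58.4, 119.6 and 58.3 CPM in Glut1Tg 1 to 4 and 46.1 to 62.0 CPM in WT. Its log2 fold change was 0.62 ± 0.25 (SE), 0.71 without Glut1Tg 1, 0.34 without Glut1Tg 3 and 0.31 without the 3 libraries.

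The median over the 34 genes moved with the same libraries: it was 0.27 in all 9, 0.09 without Glut1Tg 1 and 0.00 without Glut1Tg 1, Glut1Tg 3 and WT 2, where 17 of 34 were positive. Within mouse group 1 it was 0.12 and within mouse group 2, where Glut1Tg 1 is the single transgenic library, 0.40. The ATF6-arm median was 0.44 in all 9 libraries, 0.19 without Glut1Tg 1 and 0.06 without Glut1Tg 1, Glut1Tg 3 and WT 2. For that arm it was 0.22 within mouse group 1 and 0.71 within mouse group 2. The number higher at an unadjusted p under 0.05 was 1 without Glut1Tg 1 (beside 0.985% of all genes), 1 without Glut1Tg 3 (2.28%) and 1 without WT 1 (1.77%). It was 2 without WT 3 (2.82%), 2 without WT 5 (2.18%) and 3 without WT 4 (2.90%). It was 6 without Glut1Tg 4 (5.79%), 8 without WT 2 (5.95%) and 11 without Glut1Tg 2 (6.00%). With other models the number was 3 in limma-voom (3.96%), 2 in limma on the authors' log2 table (3.06%), 3 with replicate number as a block (2.27%) and 1 without the mouse group term (2.31%). Within mouse group 1 it was 0 (1.07%). Without Glut1Tg 1 and WT 2 it was also 0 (1.54%), as it was with Glut1Tg 3 also out (1.71%). The proliferation markers (Glut1Tg 1) and the mast cell and myeloid markers (Glut1Tg 3) stand apart in the same libraries, and their part in these values was not tested.

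Among sensors and factors, genotype differences were within the spread. Eif2ak3 had 41.7, 123, 42.5 and 124 CPM in Glut1Tg 1 to 4 and 184, 53.2, 122, 59.7 and 72.3 CPM in WT 1 to 5 (log2 fold change −0.62 ± 0.32 SE, adjusted p = 0.681). The ranges of the genotypes overlapped. Ern1 was at −0.29 ± 0.19, Atf6 at 0.07 ± 0.16, Ddit3 at −0.32 ± 0.26 and Xbp1 at 0.48 ± 0.31 (log2 fold change, SE), none past the test. Hspa5 had 549.7, 537, 767 and 539 CPM in Glut1Tg 1 to 4 and 589, 436, 494, 371 and 327 CPM in WT 1 to 5. WT 1 lay above 3 of the 4 Glut1Tg libraries, while WT 2, 3, 4 and 5 lay below all 4. The log2 fold change was 0.32 ± 0.17 (SE; adjusted p = 0.681). Atf4, the factor downstream of PERK, had 195.8 to 415 CPM in Glut1Tg and 147 to 219.6 CPM in WT, with the highest value in Glut1Tg 3.

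Derl3 was the single gene of the 34 whose genotypes did not overlap (2.94%, beside 1.59% of all genes). It had 1.74, 1.69, 1.2 and 1.44 CPM in Glut1Tg 1 to 4 and 2.08, 2.72, 2.68, 2.43 and 2.89 CPM in WT 1 to 5. All Glut1Tg values were lower, at a level near 2 CPM. The log2 fold change was −0.68 ± 0.25 (SE; adjusted p = 0.681), −0.73 within mouse group 1 and −0.65 within mouse group 2.

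The genotype difference was not shown to depend on mouse group. In the interaction fit, 0 of the 34 genes had an unadjusted p under 0.05, beside 5.30% of all genes, and edgeR called 0 of all genes (DESeq2 called 6, none of them among the 34). The term rests on Glut1Tg 1, the single transgenic library of mouse group 2. Its estimate was above 0 for all 17 genes of the ATF6 arm, with a median of 0.33 on the log2 scale. Over all genes it was above 0 for 7467 of 14817, with a median of 0.007. The 10 proliferation markers were also all above 0, with a median of 0.93.

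Other genes of the same pathways, from lists that do not overlap the 34, were measured in the same fits. For genotype none was called. Higher in Glut1Tg at an unadjusted p under 0.05 were 1 of 13 tested genes of PERK signalling and the integrated stress response, 2 of 12 partners of IRE1 and ATF6, and 4 of 19 further folding and oxidation factors. The same held for 0 of 20 further degradation factors and 4 of 22 further translocation and glycosylation factors, and 0 in any list were lower. Over all genes the shares were 4.50% higher and 1.50% lower. The smallest p-value of the first list belonged to Cebpb, a stress-induced partner of CHOP, at 2.81 CPM in WT (log2 fold change 1.4 ± 0.45 SE, adjusted p = 0.681). In the other lists, in turn, it belonged to Bax (0.50 ± 0.20), the isomerase-like chaperone Erp29 (0.68 ± 0.24), Ube2g2 (0.24 ± 0.12) and the translocon-associated subunit Ssr2 (0.57 ± 0.23). In Cebpb, Bax and Erp29, Glut1Tg 1 and Glut1Tg 3 were again the highest transgenic libraries, and Glut1Tg 2 and 4 lay within the WT range. Erp29, for example, had 141, 80.2, 157 and 72.9 CPM in Glut1Tg 1 to 4 and 62.3 to 93.8 CPM in WT. Ube2g2 was highest in Glut1Tg 2 (67.5 CPM).

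By mouse group, the same lists again went both ways, beside 13.1% of all genes higher and 11.0% lower. In the PERK list, Nupr1, a stress-induced chromatin factor, was higher in mouse group 2 (means of 1.88 CPM in mouse group 1 and 9.20 CPM in mouse group 2, in that order below) and Atf3, a repressor induced by ATF4, lower (5.00 against 0.70 CPM). Nupr1 was highest in Glut1Tg 1 and WT 2 (16.0 and 12.8 CPM, against 2.12 and 5.89 CPM in WT 4 and 5), and Atf3 in Glut1Tg 3 (15.3 CPM, against 1.64 to 4.34 CPM in the rest of mouse group 1). Among the partners, Atf6b, the paralogue of ATF6 (42.9 against 62.7 CPM), and Bak1, a pro-apoptotic BCL-2 protein (55.5 against 80.8 CPM), were higher. Map3k5 (ASK1), a kinase downstream of IRE1, was lower (72.9 against 51.3 CPM). In Atf6b and Map3k5 the mouse groups did not overlap. Bak1 had 110 and 90.7 CPM in Glut1Tg 1 and WT 2, but 59.4 and 62.5 CPM in WT 4 and 5, within mouse group 1 (46.9 to 70.2 CPM). Of the folding factors 4 of 19 were higher, among them the glucosidase Mogs (37.0 against 95.2 CPM) and Fkbp2, and 1 lower, Fkbp7. Of the degradation factors the ligase Rnf5 was higher (13.7 against 30.6 CPM) and Ube2j2 and Rnf139 lower. Of the translocation factors Spcs2, Spcs3 and Srprb were higher, and Sec63 and Sec11c lower. Sec11c, a catalytic subunit of the signal peptidase, had 305 against 139 CPM, with a log2 fold change of −1.17 ± 0.14 (SE; adjusted p = 0.00196), while its partners Spcs2 and Spcs3 of the same enzyme were at 0.50 ± 0.14 and 0.83 ± 0.25.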

How the data were processed

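The deposited count table holds whole-number counts per gene, made by the authors from paired 75-base reads of stranded poly(A) libraries. The tools named per the submitters' processing notes are bcl2fastq, TopHat2, featureCounts and DESeq2, on mm10. A deposited table of log2 values from the authors was used only as an alternative: its values are centred in each gene on WT 1 and WT 3, and the labels do not say how it was made. All 34 genes passed the filter on low counts (edgeR's filterByExpr by genotype, 14817 of 28111 genes kept). Main fits used edgeR 4.0.16 in R 4.3.3 (TMM scaling, quasi-likelihood test, two-sided, mouse group and genotype as terms), with Benjamini-Hochberg adjustment over all genes tested and a threshold of 0.05. The interaction was fitted apart. CPM uses TMM-scaled totals, and log2 CPM a pseudocount of 1. RPKM divides by the exon union of GENCODE release M21 on GRCm38, which is mm10. The script was tested on simulated counts with the same design, with 200 genes changed for each comparison. For genotype it recovered 0 genes at 1.5-fold, 24 at 2-fold and 166 at 4-fold. For mouse group it recovered 0, 38 and 155. DESeq2 1.42.0, limma 3.58.1 (voom, and on the log2 table), other scaling and filters, left-out libraries and within-group fits were alternatives. No pair of libraries of 1 genotype agreed within sampling noise (lowest chi-square per degree of freedom 20.6). The 34 genes, arms and lists were chosen with earlier results of these data known. Named genes are all 34 with a value or range, the identity and library markers, and from each further list those that passed or had the smallest p. Protein features were not used here.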

Additional observations from a re-analysis of the deposited data

Results flagged for a closer look

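Within genotype groups of 4 or 5 libraries, 15 of 68 groups had 1 library far from the rest by Dixon's test. It flags about 1 in 20 independent groups by chance, but these groups share the same 9 libraries. The same count over all genes is not given, so the number cannot be read as particular to this set. Over the 14817 genes tested, Glut1Tg 1 and WT 2 both lay above all other libraries in 22.6% and below them in 19.7%. WT 2 accounted for 9 of the 15 and Glut1Tg 1 for 4. WT 2 was low in Ppp1r15a (35.6 CPM, others 109.0 to 129.6) and high in Dnajc10 (173 CPM), Hsp90b1 (609 CPM), Canx (481 CPM) and Pdia6 (160.2 CPM). It was also high in P4hb (363 CPM), Sdf2l1 (28.8 CPM), Manf (95.5 CPM) and Hyou1 (136 CPM). Glut1Tg 1 was high in Dnajc10 (192 CPM), Derl2 (50.7 CPM), Sec61a1 (254 CPM) and Canx (568.4 CPM). Glut1Tg 3 was high in Hspa5 (767 CPM, others 537 to 549.7), and WT 1 was high in Trib3 (25.9 CPM, others 11.9 to 14.5). The groups mix both mouse groups, so a library can be far from the others of its genotype and not from its mouse group, as for Derl2 in Glut1Tg 1.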

How the results depend on the processing

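None of the 34 genes was called for genotype under any of 20 alternatives. Over all genes the genotype count of 1 became 7 with DESeq2, 2 without the filter, 0 within either mouse group, 0 without Glut1Tg 1 and WT 2, 14 with Glut1Tg 3 also out (an alternative chosen after seeing the data), and 1 to 2 with 1 library left out. The genotype median of the 34 genes was 0.12 within mouse group 1, 0.40 within mouse group 2, 0.092 without Glut1Tg 1 and WT 2, and −0.0011 without those 2 and Glut1Tg 3 (0.092 to 0.29 with 1 library left out). The mouse group count of 3576 became 635 in WT libraries only and 561 without Glut1Tg 1 and WT 2, and ran from 651 to 4575 with 1 library left out, the lowest without Glut1Tg 1. For the 34 genes the count of 10 became 1 in each of the first 2 and ran from 1 to 15. The mouse group median of the 34, 0.14, was −0.056 without Glut1Tg 1 and WT 2, −0.055 without those 2 and Glut1Tg 3, and 0.034 to 0.21 with 1 library left out. The interaction count was 6 with DESeq2. The cause of these shifts was not tested, though leaving libraries out also shrinks the fit.

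With the replicate block the genotype count was 0, the mouse group counts were 0 of all genes (4470 at an unadjusted p under 0.05) and 0 of the 34, and the mouse group median was 0.31. Same-numbered libraries correlated at −0.57, −0.68, 0.19 and −0.25 (numbers 1 to 4) in their deviations from the genotype means. These deviations keep the mouse group difference, and only number 3 joins libraries of the same mouse group. The values therefore cannot decide whether the numbers pair the libraries.

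Under at least 1 alternative the sign turned in 17 of the 34 genes for genotype (20 alternatives) and 10 for mouse group (19), none of them called. Among genes whose fold change is printed for that comparison, genotype signs turned for Ddit3 without the mouse group term (0.095), Ern1 within mouse group 2 (0.056), and Xbp1 without Glut1Tg 1 (−0.0213), also without WT 2 (−0.0213), and also without Glut1Tg 3 (−0.12). Atf6 turned within mouse group 1 (−0.057) and in those same 3 settings (−0.083, −0.083 and −0.18), and Hspa5 in the last (−0.0207). For mouse group, Xbp1 turned with the replicate block (0.12) and without WT 3, 4 or 5 (0.041, 0.084 and 0.088). Atf6 turned in WT libraries only (−0.050), without Glut1Tg 1 (−0.058), without WT 2 (−0.0018), without both (−0.18) and with Glut1Tg 3 also out (−0.18). With 1 library left out, the genotype values ran from −0.021 to 0.61 for Xbp1 and −0.083 to 0.15 for Atf6, and the mouse group values from −0.57 to 0.088 and −0.058 to 0.15. None of these genes had passed the test for that comparison in all 9 libraries. Depth limits Derl3 most, since every other gene had at least 8.36 CPM in each library.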
